A study of Mus musculus with 108 samples.

Results

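The GSC1 culture line was profiled as 30 single cells whose serial numbers fall into 2 separate stretches, and the cells of the first stretch were set against those of the second. The first set held the 13 cells numbered 65 to 80 (the low-numbered cells) and the second the 16 cells numbered 129 to 150 (the high-numbered cells), together 29 of the 30 GSC1 cells, in a series that held 78 cells of other lines. The cell GSC1_MS094_146 was left out of the second set by the rule that chose the cells. The rule names cells by serial number only, but the sets were chosen with earlier results of these data known. The cell left out stood apart in its fibroblast and cytoskeletal genes, as given further below. The labels do not say why the numbers fall into 2 stretches, so differences in handling and in the state of the culture cannot be told apart.

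All cells were mouse germline stem cells (GSCs) of the background 129/SvJcl x C57BL/6 carrying the AcrAct_EGFP reporter. They grew in StemPro-34 SFM with 1% FBS and the growth factors GDNF, bFGF, LIF and EGF, and were dissociated with trypsin and EDTA into single cells, per the labels' protocols. Both sets shared the line, reporter, strain and medium, and no label separates them by passage, day or animal. The series also held 24 cells of GSC2, a line from separate testes, and 30 and 24 cells of GSCLC1 and GSCLC4, which are germline stem cell-like cells with the same strain and reporter labels. SC3-seq, which reads the 3′ ends of polyadenylated RNA from 1 cell, was used throughout.

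Germline stem cells are spermatogonial stem cells kept in culture. GDNF binds the co-receptor Gfra1 and the kinase Ret on their surface and, with FGF, keeps them undifferentiated through transcription factors such as Etv5 and Bcl6b. Retinoic acid is the signal that moves spermatogonia towards differentiation and meiosis, and germ cells answer DNA damage through the p53 pathway, whose targets include the cell cycle inhibitor Cdkn1a and the cell death gene Bax.

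Cells of 1 culture are not replicates, and each set is a single sample of its line, so no test across genes was possible and no p-value is given. Values are RPM, the deposited read numbers scaled to the size of each library, and fold changes are log2 differences of mean RPM + 1, low-numbered over high-numbered cells, which understate changes of low genes. A gene is called higher or lower where both its mean and its median over cells differ at least 2-fold on that scale, and it is counted where the mean of the 2 set means is at least 5 RPM. These are statements about the cells measured.

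Both sets carried the defining genes of the labelled cell type. Dazl, an RNA-binding protein of germ cells, was at least 1465 RPM in all 29 cells, and Ddx4, a germ cell RNA helicase, at least 273 RPM. Markers of other testis cells were low. Of 16 Sertoli cell genes, 3 were counted, 7 (Amh, Gata1, Cst9, Cst12, Dhh, Fshr and Defb36) were at 0 in every cell, and the list summed to between 0.58 and 348 RPM in low-numbered cells and between 0.77 and 232 RPM in high-numbered cells. Of the 3 counted, Trf was called higher (33.3%, beside 4.25% of all genes counted). It averaged 39.4 RPM in low-numbered and 12.3 RPM in high-numbered cells (log2 1.60, and 0.22 without the cell numbered 68). Of 12 Leydig and peritubular genes, 3 were counted and 7, among them Cyp11a1, Insl3 and Myh11, were at 0. They summed to at most 92.1 and 273 RPM in a low-numbered and a high-numbered cell. Their member Acta2 averaged 0.85 and 48.5 RPM in low- and high-numbered cells. Of 13 measured blood and endothelial genes, 2 were counted, with sums of at most 132.8 and 66.1 RPM in a low-numbered and a high-numbered cell.

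The cells of the sets were alike in size of the profile and in spike-in content. Low-numbered cells had 8283 to 10595 detected genes (RPM above 0, median 8819) and high-numbered cells 7305 to 9902 (median 8791). Estimated depth was higher in low-numbered cells, with a median of 4.05 M reads (2.52 M to 6.05 M) against 3.33 M (2.03 M to 4.58 M) in high-numbered cells. At an equal 2026772 reads a cell, drawn at random, the medians were 8116 detected genes in low-numbered and 8339 in high-numbered cells. Synthetic spike-in RNA had a median of 42079 RPM in low-numbered cells and 42165 RPM in high-numbered cells. Of 39 spike-ins counted at the 5 RPM limit used for genes, 3 were at least 2-fold higher and 5 at least 2-fold lower in the mean, with log2 fold changes between -6.07 and 1.93. Among the 18 at 100 RPM or more the range was -0.38 to 0.64, and none was 2-fold apart. The 85 ribosomal protein genes summed to a median of 181446 RPM in low-numbered and 204562 RPM in high-numbered cells, and none of the 84 counted was called.

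**Figure D1:**
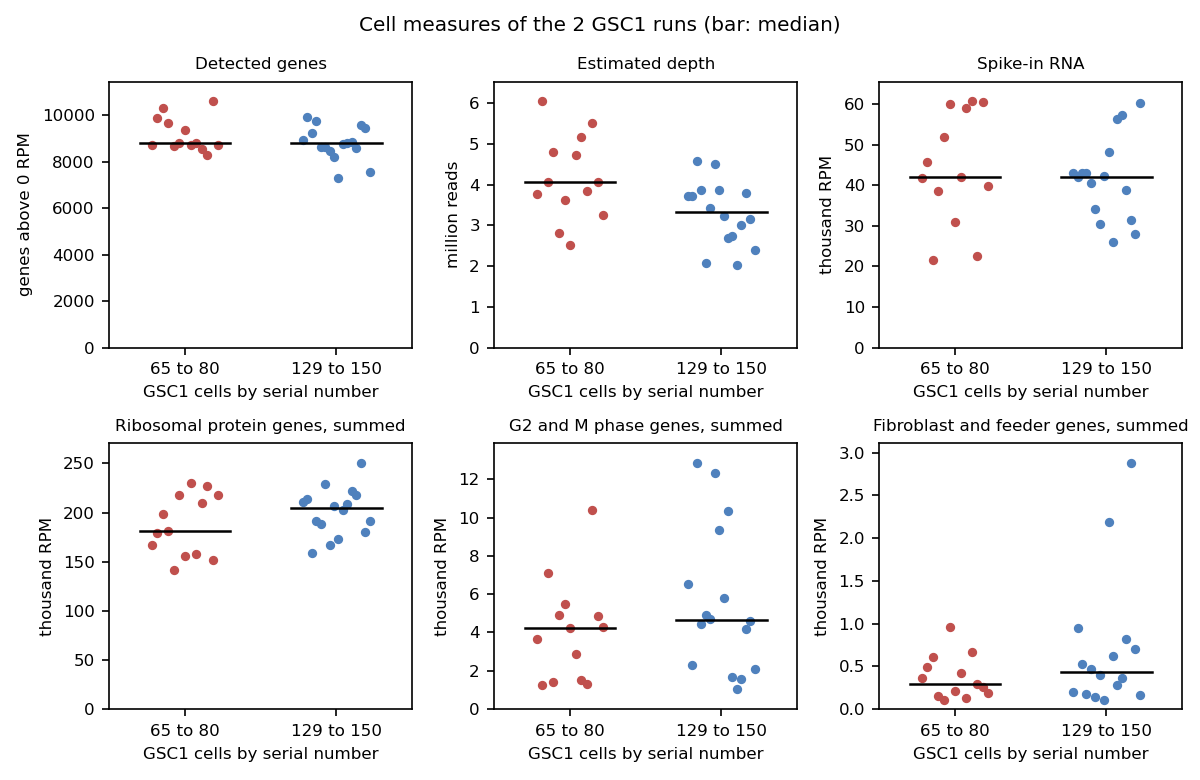
Detected genes, estimated depth (M reads), spike-in RNA and 3 summed gene lists (kRPM) in each of the 13 low-numbered and 16 high-numbered GSC1 cells, 1 point a cell, with the median as a bar. The sets overlap in every panel, and depth has its medians at 4.05 M and 3.33 M reads.

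Of 10071 genes counted, 428 were called higher in low-numbered cells (4.25%) and 439 lower (4.36%), together 867 (8.61%). The median log2 fold change of all genes counted was 0.003. In no gene did the cells of the sets fail to overlap (0 of 10071). The mean alone passed 2-fold in 2303 genes (22.9%), the share to set beside the spike-ins, so most of the differences in means did not hold in the median cell. Among the 1749 genes that reached 5 RPM in at least 90% of the cells of each set, 8 were called (0.457%), a class chosen after the values were seen. How many genes any pair of sets of cells from 1 culture would differ in was not tested.

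Of those 8 widely detected genes, the membrane-binding copine Cpne1 had the largest fold change (130.4 RPM in low-numbered and 51.2 RPM in high-numbered cells, log2 1.33). Ddx46, an RNA helicase of the spliceosome, averaged 244 RPM in low-numbered cells and 118.4 RPM in high-numbered cells (log2 1.04). Rbm25, a splicing regulator, averaged 228 and 104.5 RPM in low- and high-numbered cells (log2 1.12), and Arglu1, another splicing factor, 221 and 102.2 RPM (log2 1.10). Ssu72 and Ctdsp2, phosphatases that act on the tail of RNA polymerase II, had log2 fold changes of 1.06 and 1.07. The lower members were Eif4ebp1, which holds back translation by binding the cap-binding factor eIF4E (171.9 RPM in low-numbered and 375 RPM in high-numbered cells, log2 -1.12), and the lipid phosphatase gene Mtmr3 (62.4 and 145.7 RPM, log2 -1.21). In Eif4ebp1, 1 of 13 low-numbered cells lay above the median of the high-numbered cells.

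By the same count, the gap between the sets (8.61%) was below that of each set with GSCLC4. It was above that of each set with GSC2 and with GSCLC1, and above each gap between the other lines. Low-numbered cells differed 2-fold from GSC2 in 7.31% of genes counted, from GSCLC1 in 8.34% and from GSCLC4 in 13.1%. For high-numbered cells the shares were 6.99% against GSC2, 8.13% against GSCLC1 and 11.8% against GSCLC4. Between the other lines the shares were 5.63% (GSC2 over GSCLC1), 8.35% (GSC2 over GSCLC4) and 6.86% (GSCLC1 over GSCLC4). The comparisons share cells, and the sets hold 13 and 16 cells against 24 to 30 in the other lines, so sets of unequal size are compared; the part of set size in these shares was not tested.

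**Figure D2:**
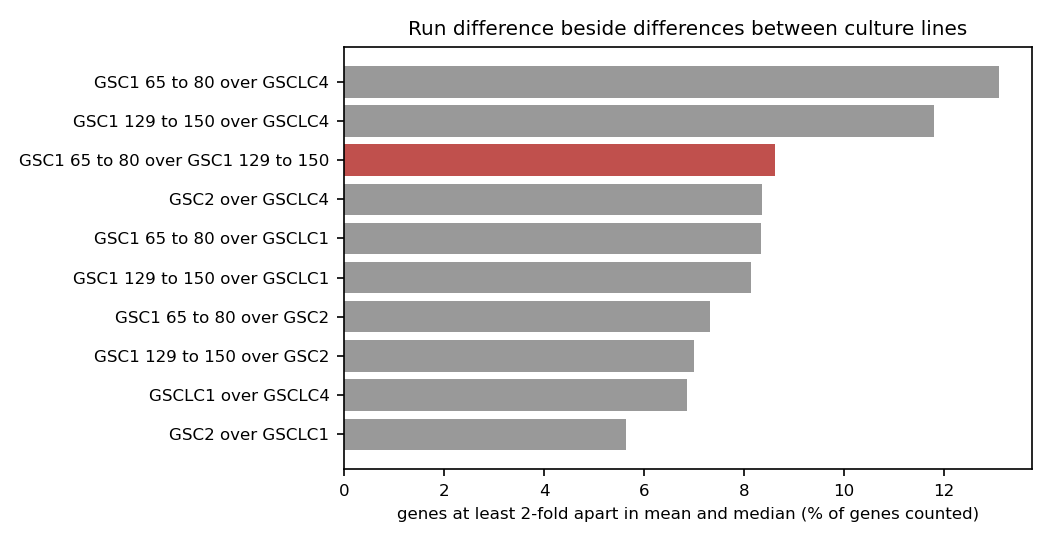
Share of counted genes at least 2-fold apart in mean and median for each pair among the 2 GSC1 sets and the other 3 lines, as bars starting at 0, with the comparison between the GSC1 sets in red. That comparison reached 8.61%, above the other pairs except those of the GSC1 sets with GSCLC4, at 13.1% and 11.8%.

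Likeness between cells was close within and between the sets. The Spearman correlation of 2 cells over the genes counted had a median of 0.531 over the 78 pairs of low-numbered cells, 0.511 over the 120 pairs of high-numbered cells and 0.522 over the 208 pairs between the sets. Pairs share cells and depend on depth, so these are descriptions. The first principal component over the 1000 most variable genes held 6.68% of the variance and the second 5.34%, and the sets overlapped on both, with median scores on the first of 1.93 in low-numbered and -4.36 in high-numbered cells. The fourth component, with 4.55%, had the widest gap among the first 5, with medians of 13.05 in low-numbered and -7.77 in high-numbered cells, and also overlapped.

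A few targets of p53 were lower in low-numbered cells. Cdkn1a (chromosome 17, 29090979 to 29100722), which encodes the cell cycle inhibitor p21, had 0, 4.37 and 84.4 RPM in the lowest, median and highest low-numbered cell, against 0, 62.1 and 289 RPM in high-numbered cells. Low-numbered cells were low as a set, with 1 of 13 above the median of the high-numbered cells, while 15 of 16 high-numbered cells lay above the median of the low-numbered ones. The means were 12.8 and 84.9 RPM in low- and high-numbered cells (log2 -2.64, and -3.45 without the cell numbered 68). Cdkn1a reached 5 RPM in 6 of 13 low-numbered cells (46.2%, exact 95% interval 19.2 to 74.9) and in 15 of 16 high-numbered cells (93.8%, 69.8 to 99.8), with the same counts after thinning to equal depth. The intervals cover counting of these cells only. In the other lines Cdkn1a averaged 28.5 RPM in GSC2, 10.1 RPM in GSCLC1 and 54.2 RPM in GSCLC4, so that high-numbered GSC1 cells had the highest mean.

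Bax (chromosome 7, 45461695 to 45466903), a pore-forming protein that starts apoptosis at mitochondria, had 0, 0.40 and 43.2 RPM in the lowest, median and highest low-numbered cell, against 0, 23.6 and 94.1 RPM in high-numbered cells. The means were 5.78 and 28.9 RPM (log2 -2.14, and -3.03 without the cell numbered 68), and the gene reached 5 RPM in 3 of 13 low-numbered and 10 of 16 high-numbered cells. Phlda3, a p53 target that restrains the kinase Akt, averaged 1.83 RPM in low-numbered and 9.76 RPM in high-numbered cells (log2 -1.93). The other way, Ei24, a p53-induced gene of the endoplasmic reticulum, averaged 84.7 RPM in low-numbered and 33.8 RPM in high-numbered cells (log2 1.3). Ei24 stayed called in 21 of the 29 sets that each left out 1 cell. Of 20 p53 response genes counted, 1 was higher and 3 were lower, beside 4.25% and 4.36% of all genes counted, with a median log2 fold change of -0.18.

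The remaining p53 targets were not called. Some had means over 2-fold apart and medians within 2-fold, among them Plk2, a stress-induced kinase (0.57 and 11.8 RPM in low- and high-numbered cells, log2 -3.03), Rrm2b, a ribonucleotide reductase subunit for DNA repair (0.69 and 12.2 RPM, log2 -2.97), and the stress gene Sesn1 (18.2 and 6.16 RPM, log2 1.43). Ccng1, which encodes cyclin G1, had means of 122.4 and 252 RPM in low- and high-numbered cells (log2 -1.04), but its medians of 117.9 and 191 RPM did not reach 2-fold, so it was not called. Mdm2, the ubiquitin ligase that degrades p53, averaged 198 RPM in low-numbered and 205 RPM in high-numbered cells (log2 -0.05). The death gene Pmaip1 averaged 130 and 110 RPM (log2 0.24). The list summed to 503 to 1372 RPM in low-numbered cells and 555 to 2207 RPM in high-numbered cells, and 12 of 16 high-numbered cells lay above the median of the low-numbered ones. Of 17 apoptosis genes counted, 1 was higher (Birc2, a caspase inhibitor, log2 1.15) and 4 were lower (5.88% and 23.5%, beside 4.25% and 4.36% of all genes counted). Among the lower ones, beside Bax, were Apaf1, the scaffold of the apoptosome (10.2 and 31.2 RPM in low- and high-numbered cells, log2 -1.52, and -2.72 without the cell numbered 72), and Birc5, which also serves in mitosis (20.1 and 45.7 RPM, log2 -1.14). Without the cell numbered 65, Birc2 had a log2 fold change of 0.55 and was no longer called, and it ranged up to 2.19 without GSC1_MS094_140. It was also not called without GSC1_MS094_141 and GSC1_MS094_147 (log2 0.99), when 5 of the list were lower.

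Of 29 genes of G2 and M phase counted, 5 were called lower in low-numbered cells (17.2%, beside 4.36% of all genes counted) and none higher. The log2 fold changes of means were negative in 24 of them, with a list median of -0.49. Among those not called, Mki67, Cdk1 and Bub1b had higher medians in low-numbered cells (log2 differences of medians 1.07, 0.53 and 0.41). Nusap1 (chromosome 2, 119618298 to 119650165), a spindle microtubule protein, had 0, 1.99 and 253 RPM in the lowest, median and highest low-numbered cell, against 0, 73.1 and 394 RPM in high-numbered cells (means 42.2 and 126 RPM, log2 -1.55, and -2.31 without the cell numbered 77). The cells of both sets fell into high and low ones, with 5 of 13 low-numbered and 11 of 16 high-numbered cells at 5 RPM or more. Bub1 (chromosome 2, 127800197 to 127831859), a kinase of the spindle checkpoint, had 0.53, 90.5 and 266 RPM in low-numbered cells and 0, 222 and 535 RPM in high-numbered cells (means 93.5 and 220 RPM, log2 -1.23). In Bub1, 1 low-numbered cell lay above the median of the high-numbered cells.

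The spindle assembly factor Tpx2 (log2 -1.43), the mitotic kinase Aurkb (log2 -1.38) and Birc5 completed the called members. Without the cells GSC1_MS094_141 and GSC1_MS094_147, Aurkb had a log2 fold change of -0.97, just short of the limit, and 4 members were called. Cyclin B1 (Ccnb1) averaged 322 RPM in low-numbered and 497 RPM in high-numbered cells (log2 -0.63), Top2a, the topoisomerase of condensing chromosomes, 357 and 606 RPM (log2 -0.76), and the proliferation marker Mki67 158.1 and 112.1 RPM (log2 0.49). The summed list overlapped widely, with 1277 to 10384 RPM and a median of 4219 RPM in low-numbered cells and 1023 to 12860 RPM with a median of 4646 RPM in high-numbered cells. Of 24 S phase genes counted, 2 were called, both higher (8.33%, beside 4.25% of all genes counted). Cdc6, which loads the replicative helicase, averaged 41.1 RPM in low-numbered and 4.20 RPM in high-numbered cells (log2 3.02, and between 2.34 without the cell numbered 73 and 4.29 without GSC1_MS094_136), and Chaf1b, a subunit of a histone chaperone for new DNA, 28.0 and 11.5 RPM (log2 1.21). Without the cell numbered 77, Chaf1b was no longer called (log2 0.86), nor without the cell numbered 70, and without GSC1_MS094_147 it was 2.17.

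**Figure D3:**
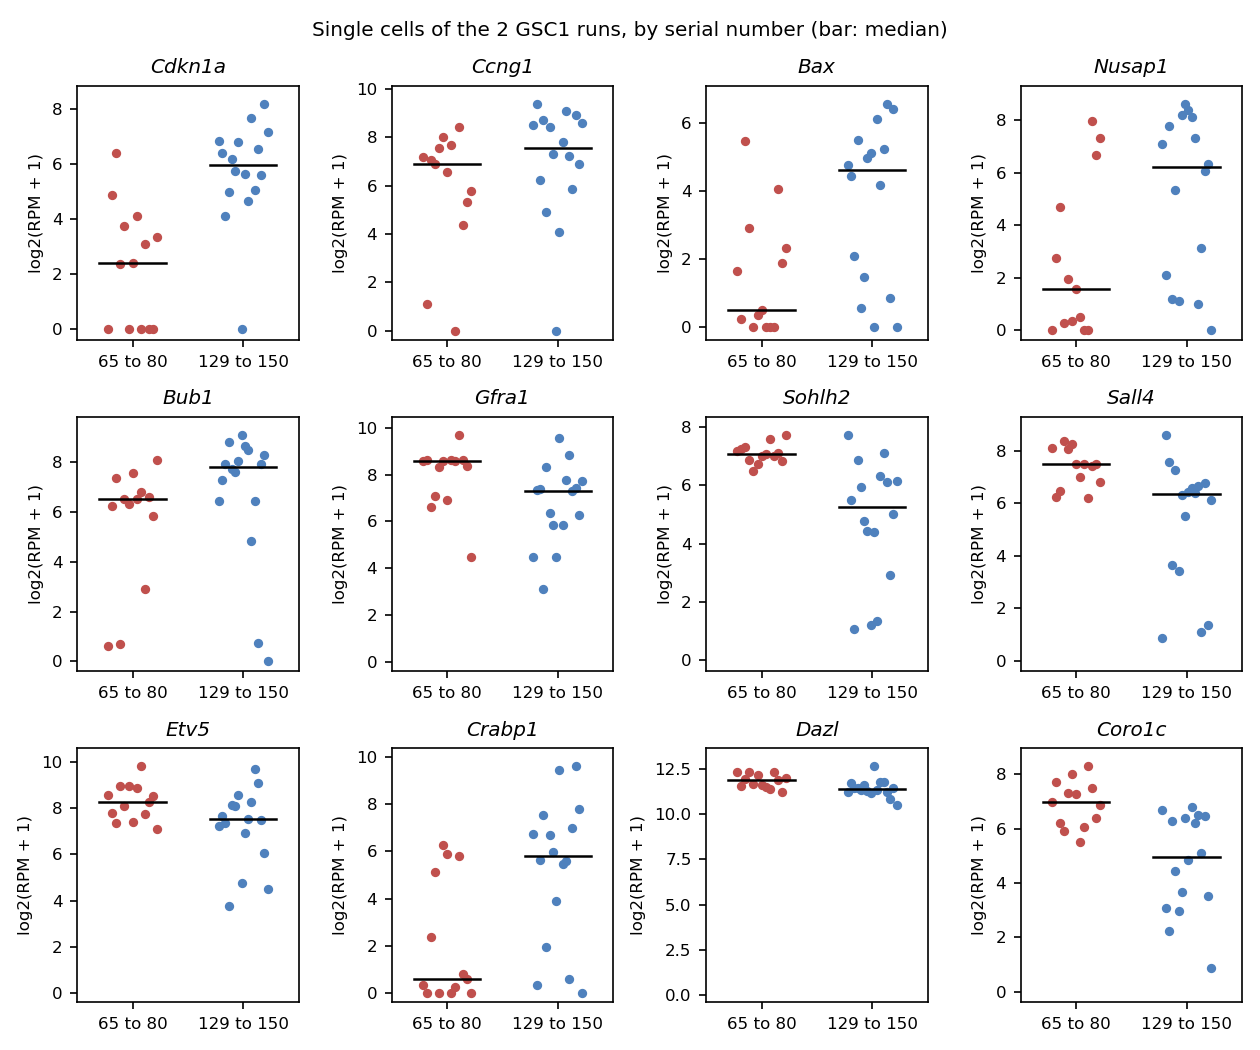
log2(RPM + 1) of 12 genes in each of the 13 low-numbered and 16 high-numbered GSC1 cells, with the median as a bar; genes span p53 targets (Cdkn1a, Ccng1, Bax), mitosis (Nusap1, Bub1), stem cell and germ cell factors (Gfra1, Sohlh2, Sall4, Etv5, Dazl), Crabp1 and Coro1c. Cdkn1a has medians of 4.37 and 62.1 RPM and Sohlh2 134 and 37.8 RPM in low- and high-numbered cells, and the sets overlap in every gene shown.

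Among genes of undifferentiated spermatogonia, the transcription factors Sohlh2, Sall4 and Bcl6b were called higher in low-numbered cells. Sohlh2 (chromosome 3, 55182044 to 55209957), a basic helix-loop-helix factor of spermatogonia, had 90.5, 134 and 212 RPM in the lowest, median and highest low-numbered cell, against 1.09, 37.8 and 212 RPM in high-numbered cells. All 13 low-numbered cells lay above the median of the high-numbered cells, whose values ranged more widely (SD over cells 33.8 RPM in low-numbered and 58.6 RPM in high-numbered cells). The means were 139 and 56.3 RPM (log2 1.29), beside 71.2 RPM in GSC2, 103.5 RPM in GSCLC1 and 99.8 RPM in GSCLC4. Sall4 (chromosome 2, 168748332 to 168767201), a zinc finger factor of germ and stem cells, had 72.8, 176.7 and 330 RPM in low-numbered cells and 0.81, 80.3 and 384 RPM in high-numbered cells (means 180.7 and 87.9 RPM, log2 1.03). Without the cell numbered 69 its log2 fold change was 0.93, and it was called in 19 of the 29 sets that left out 1 cell.

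Bcl6b, a GDNF-induced repressor needed for stem cell upkeep, averaged 88.4 RPM in low-numbered and 38.8 RPM in high-numbered cells (log2 1.17, and 0.94 without the cell numbered 70), and was called in 14 of those 29 sets. Id4, an inhibitor of helix-loop-helix factors that marks stem cells, went the other way, with 8.15 RPM in low-numbered and 36.03 RPM in high-numbered cells (log2 -2.02). It reached 5 RPM in 5 of 13 low-numbered and 9 of 16 high-numbered cells. Of 22 undifferentiated spermatogonia genes counted, 3 were higher and 1 was lower (13.6% and 4.55%, beside 4.25% and 4.36% of all genes counted), with a median log2 fold change of 0.07. The list summed to a median of 2983 RPM in low-numbered cells and 2575 RPM in high-numbered cells.

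The GDNF co-receptor gene Gfra1 (chromosome 19, 58235581 to 58455946) was above 5 RPM in every cell. It had 21.3, 379 and 820 RPM in low-numbered cells and 7.74, 158.7 and 757 RPM in high-numbered cells. The medians were over 2-fold apart and the means, 321 and 182.9 RPM, were not (log2 0.81), so it was not called, although it passed without the cells GSC1_MS094_141 and GSC1_MS094_147. Ret averaged 88.3 and 102.4 RPM in low- and high-numbered cells (log2 -0.21). Etv5, an ETS factor induced by GDNF, averaged 354 RPM in low-numbered and 232 RPM in high-numbered cells (log2 0.61), and Dusp6, a phosphatase that dampens ERK signalling, 164.3 and 106.3 RPM (log2 0.62). Of 23 GDNF and FGF response genes counted, 2 were higher, Bcl6b and the ERK inhibitor Spred2 (59.4 and 28.8 RPM, log2 1.02), and none was lower (8.7% higher, beside 4.25% of all genes counted). The median of the list was 0.28. At 5 RPM or more, Bcl6b was found in 9 of 13 low-numbered and 12 of 16 high-numbered cells, and Spred2 in 11 and 9. Spred2 was called in 16 of the 29 sets that left out 1 cell (log2 0.89 without the cell numbered 72), and not without GSC1_MS094_141 and GSC1_MS094_147 (log2 0.98), which left 1 member called.

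Core germ cell genes differed little. Dazl had 2375, 3786 and 5209 RPM in the lowest, median and highest low-numbered cell and 1465, 2656 and 6377 RPM in high-numbered cells (means 3778 and 2885 RPM, log2 0.39). Ddx4 averaged 842 and 731 RPM in low- and high-numbered cells (log2 0.20). Of 22 germ cell and piRNA pathway genes counted, 1 was called, and it was higher (4.55%, beside 4.25% of all genes counted). It was the helicase Tdrd9 of the piRNA pathway (49.5 and 8.16 RPM, log2 2.46, and 3.19 without GSC1_MS094_132). Tdrd9 was called in 22 of the 29 sets that left out 1 cell. It reached 5 RPM in 5 of 13 low-numbered and 2 of 16 high-numbered cells. Piwil4 (33.9 and 16.2 RPM in low- and high-numbered cells, log2 1.02) and Tdrd6 (0.02 and 13.3 RPM, log2 -3.81) were not called. Their means were over 2-fold apart and their medians within 2-fold. Uchl1, a deubiquitinase abundant in spermatogonia, had 14.8, 331 and 762 RPM in low-numbered cells and 121.6, 579 and 1003 RPM in high-numbered cells (log2 -0.76, not called). It was named after its values were seen.

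The largest difference tied to retinoic acid was in Crabp1 (chromosome 9, 54764748 to 54773110), a protein that binds retinoic acid in the cytoplasm. It had 0, 0.49 and 75.8 RPM in the lowest, median and highest low-numbered cell, against 0, 55.2 and 782 RPM in high-numbered cells. Low-numbered cells were mostly near 0, with 4 of 13 at 5 RPM or more (30.8%, exact 95% interval 9.1 to 61.4), while 12 of 16 high-numbered cells reached it (75%, 47.6 to 92.7). The means were 17.5 and 152 RPM (log2 -3.05). They were 16 RPM in GSC2, 20.0 RPM in GSCLC1 and 41.7 RPM in GSCLC4. The highest high-numbered cells, GSC1_MS094_147 and GSC1_MS094_141, had 782 and 694 RPM, and without both the mean of the high-numbered cells was 68.5 RPM and the log2 fold change -1.91, still called.

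Other genes of the retinoic acid response were at or near the limit of detection. Of 11 listed genes, 5 were counted, and Crabp1 was the 1 called (20.0% lower, beside 4.36% of all genes counted). Rarb, Cyp26b1 and Stra6 were at 0 in every cell. Stra8, a retinoic acid target needed for meiosis, averaged 2.50 RPM in low-numbered and 3.72 RPM in high-numbered cells, and the differentiation receptor Kit 10.5 and 5.55 RPM. Of 16 meiosis genes counted, 1 was called, and it was lower (6.25%, beside 4.36% of all genes counted). It was Syce3 of the synaptonemal complex (57.7 and 143.4 RPM in low- and high-numbered cells, log2 -1.30). Nanog and Sox2, factors of pluripotency, had medians of 0 and 0.40 RPM in low-numbered cells and 0 and 0 RPM in high-numbered cells. The means of Nanog were 0 and 0.03 RPM in low- and high-numbered cells. Sox2 averaged 28.2 and 30.2 RPM (log2 -0.10, not called), so part of the cells held it. Of 6 pluripotency genes counted, 2 were called, both higher (33.3%, beside 4.25% of all genes counted). They were Sall4 (log2 1.03) and Klf4 (log2 1.71), which are also members of other lists. Fold changes of means were positive in 3 of the 6 and negative in 3. The list summed to a median of 403 RPM in low-numbered and 210 RPM in high-numbered cells. The sets overlapped, with 11 low-numbered cells above the median of the high-numbered cells.

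**Figure D4:**
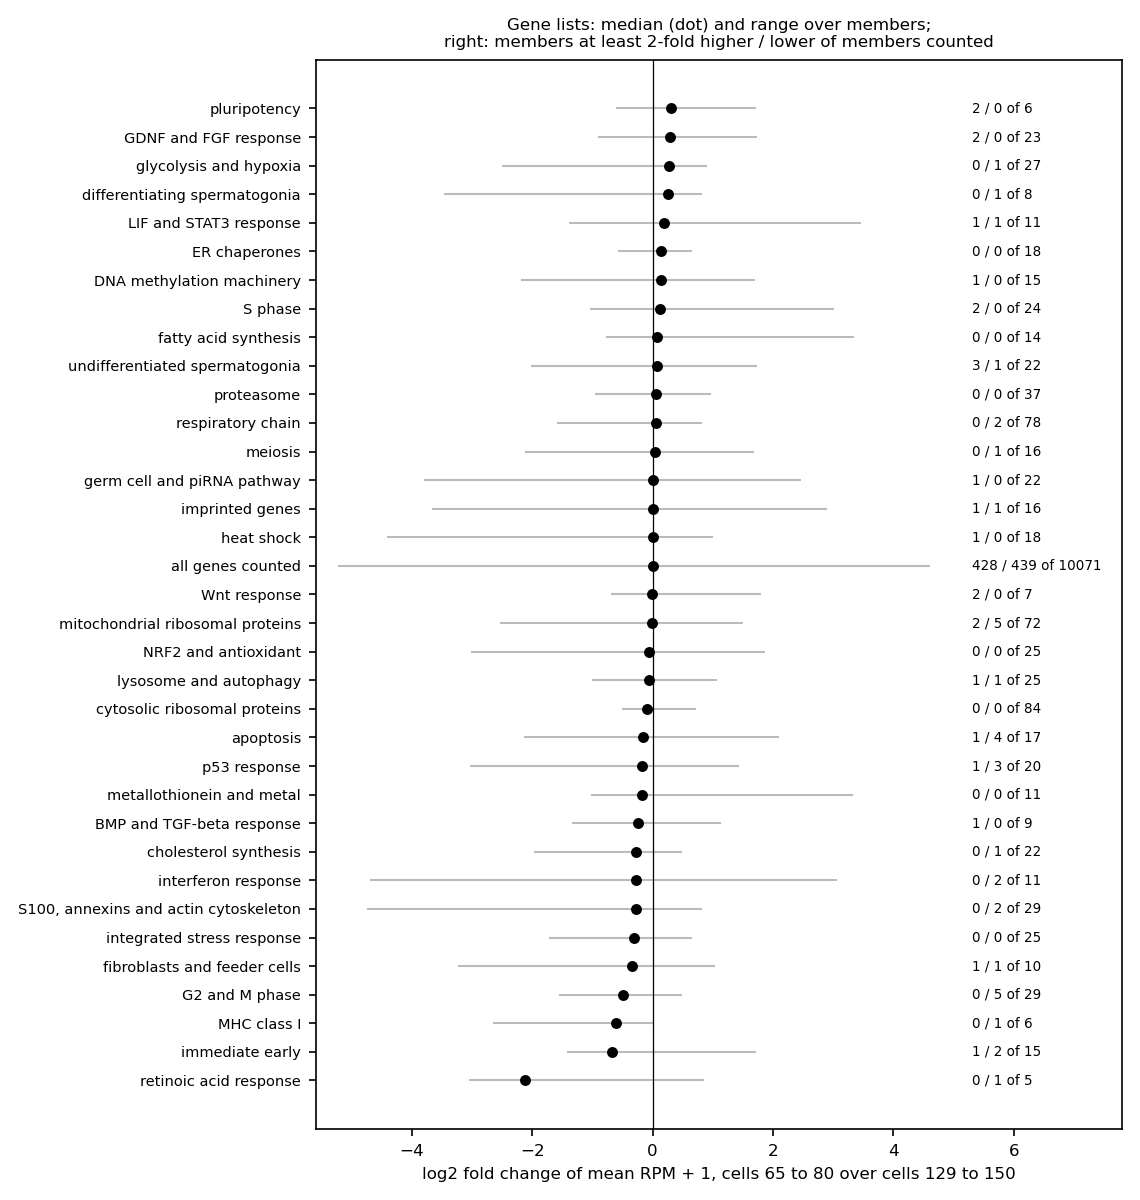
Median log2 fold change of mean RPM + 1 (dot) and range over members (line) for each gene list with at least 5 counted members, low-numbered over high-numbered cells; the counts at the right are members called higher and lower of those counted. The G2 and M phase median lies at -0.49 and the GDNF and FGF response median at 0.28, beside 0.003 for all genes counted.

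Among metabolic genes, Slc2a3 (chromosome 6, 122727809 to 122802363), the glucose transporter GLUT3, had 0.30, 26.2 and 102.0 RPM in low-numbered cells and 0, 139 and 598 RPM in high-numbered cells (means 39.9 and 158.2 RPM, log2 -1.96). No low-numbered cell lay above the median of the high-numbered cells. Slc2a3 was at 198 RPM in GSC2, 148 RPM in GSCLC1 and 225 RPM in GSCLC4, so that low-numbered GSC1 cells had the lowest mean of the 5 sets. It was the 1 gene called of 27 glycolysis and hypoxia genes counted (3.70% lower, beside 4.36% of all genes counted). Of these 27 genes, 19 had positive fold changes (list median 0.27). Acly, which makes acetyl-CoA from citrate, averaged 315 RPM in low-numbered and 172.2 RPM in high-numbered cells (log2 0.87, not called), with 11 of 13 low-numbered cells above the median of the high-numbered cells. The metallothionein Mt2, a metal-binding protein, averaged 610 and 1138 RPM in low- and high-numbered cells (log2 -0.90), and 1 low-numbered cell was above the median of the high-numbered cells. Of 78 respiratory chain genes counted, 2 were lower, Ndufa5 (log2 -1.33) and Cox7a1 (log2 -1.60), and none was higher. That is 2.56% lower, beside 4.36% of all genes counted. Of 37 proteasome genes none was called, beside 8.61% of all genes counted. Without GSC1_MS094_141 and GSC1_MS094_147, Psmd9 (log2 -1.08) and Psmd10 (log2 -1.13) of that list were called lower.

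Stress and immune lists held few calls in number, to be read beside the 4.25% higher and 4.36% lower of all genes counted. The share called lower was 13.3% in the immediate early list, 18.2% in the interferon response list and 16.7% in MHC class I. These lists are small, and the heat shock and integrated stress response lists had no lower call. In the immediate early list, 1 of 15 genes counted was higher, the Krüppel-like factor Klf4 (38.9 and 11.2 RPM in low- and high-numbered cells, log2 1.71, and 2.39 without GSC1_MS094_149), and 2 were lower, Junb (29.3 and 78.1 RPM, log2 -1.39) and Ier3 (14.8 and 34.5 RPM, log2 -1.17). Fos and Egr1, which respond to dissociation in many cell types, had log2 fold changes of 0.70 and 0.11. Neither Junb nor Ier3 was called without GSC1_MS094_141 and GSC1_MS094_147, and Ier3 then had a log2 fold change of 0.32. With single cells left out, Junb was called in 15 and Ier3 in 21 of 29 sets. Of 18 heat shock genes counted, Hsf2 was the 1 called (log2 1.00, and 0.79 without the cell numbered 73, called in 13 of 29 such sets, with fractional reads in 58.3% of the cells that detected it), and of 25 integrated stress response genes none was.

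In MHC class I, H2-K1, a heavy chain that presents peptides, averaged 9.97 RPM in low-numbered and 67.98 RPM in high-numbered cells (log2 -2.65, and -4.40 without the cell numbered 68) and reached 5 RPM in 2 of 13 low-numbered and 8 of 16 high-numbered cells. Its partner chain B2m averaged 128.5 and 180 RPM (log2 -0.48). Of 6 MHC class I genes counted, 1 was called, H2-K1, and the median log2 fold change was -0.61. The list summed to medians of 226 RPM in low-numbered and 445 RPM in high-numbered cells. Of 11 interferon response genes counted, Dhx58, a sensor of viral RNA (0.73 and 44.03 RPM in low- and high-numbered cells, log2 -4.70), and Oasl2 (33.1 and 72.8 RPM, log2 -1.11) were lower, and Ifit2, Ifit3, Isg15, Irf7 and Mx1 were at 0 in every cell. Oasl2 was not called without the cell GSC1_MS094_132 (log2 -0.83) nor without GSC1_MS094_131. The other way in the mean, Gbp3 averaged 35.98 and 3.44 RPM in low- and high-numbered cells (log2 3.06). Ddx58 averaged 40.2 and 8.10 RPM (log2 2.18). Their medians were within 2-fold, so neither was called. Fold changes of means were negative in 8 of the 11 and positive in 3.

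Among the largest called differences, genes were on in part of the cells of 1 set. Pard6b (chromosome 2, 168081004 to 168101203), a cell polarity factor, had 0, 24.5 and 198 RPM in low-numbered cells and 0, 0 and 8.01 RPM in high-numbered cells (log2 4.35), and 7 of 13 low-numbered cells lay above every high-numbered cell. Med15 (chromosome 16, 17651208 to 17722947), a subunit of the Mediator complex, had 0.58, 38.1 and 166.4 RPM in low-numbered cells and 0, 0.62 and 15.7 RPM in high-numbered cells (log2 3.09), with 8 low-numbered cells above every high-numbered one. The cardiac troponin gene Tnni3 (log2 3.78), the interferon-induced Ifitm1 (log2 3.40), the rhomboid-like gene Rhbdl3 (log2 3.38) and Auts2 (log2 3.11) were next to them in size. Leaving out single cells gave Tnni3 up to 4.37 (without GSC1_MS094_147), Ifitm1 down to 2.66 (without the cell numbered 71) and Auts2 up to 3.75 (without GSC1_MS094_145). Rhbdl3 rested on few cells, and its log2 fold change lay between 2.50 and 6.17 when single cells were left out.

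On the lower side, Zfp839 (chromosome 12, 110850251 to 110870006), a zinc finger gene, had 0, 0.55 and 15.7 RPM in low-numbered cells and 0, 33.9 and 303 RPM in high-numbered cells (log2 -4.06). Clic1 (chromosome 17, 35050243 to 35058719), an intracellular chloride channel, had 0, 0.21 and 10.7 RPM in low-numbered cells and 0, 25.04 and 93.05 RPM in high-numbered cells (log2 -3.63), with 9 high-numbered cells above every low-numbered one. Wars, the tryptophanyl-tRNA synthetase, averaged 1.28 and 28.7 RPM in low- and high-numbered cells (log2 -3.70), the sulfate transporter Slc26a2 6.01 and 62.7 RPM (log2 -3.18) and Arl2, a small GTPase of tubulin folding, 1.76 and 21.6 RPM (log2 -3.03). Without GSC1_MS094_141 and GSC1_MS094_147, Arl2 averaged 12.3 RPM in high-numbered cells (log2 -2.26), and neither it nor Wars (log2 -3.76) was called. Both were called in 21 of the 29 sets that left out 1 cell, where Arl2 was at -3.73 without the cell numbered 80 and Slc26a2 at -3.79 without the cell numbered 75. Gm10406 (log2 -3.01) had values that were not whole reads in 88.0% of the cells that detected it, so its level is uncertain.

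Of the genes named after their values were seen, Coro1c (chromosome 5, 113842439 to 113908706), a coronin that binds actin filaments, was higher in low-numbered cells. It had 44.96, 124 and 314 RPM in the lowest, median and highest low-numbered cell, against 0.83, 30.4 and 110.6 RPM in high-numbered cells (means 140.8 and 46.4 RPM, log2 1.58). All 13 low-numbered cells lay above the median of the high-numbered cells, and none of the 16 high-numbered cells lay above the median of the low-numbered ones. GSC2, GSCLC1 and GSCLC4 averaged 75.8, 92.3 and 79.5 RPM.

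Cytoskeletal genes common in fibroblasts were high in some high-numbered cells. Vim, an intermediate filament gene, had 0.91, 33.6 and 213 RPM in the lowest, median and highest low-numbered cell and 1.46, 41.8 and 2604 RPM in high-numbered cells. The medians were close while the means were 48.3 and 380 RPM (log2 -2.95), so it was not called. Vim had fractional reads in 37.9% of the cells that detected it. At 100 RPM or more of Vim, of the actin-binding Tmsb4x and of the calcium-binding S100a6 together, a limit chosen after the values were seen, 0 of 13 low-numbered and 7 of 16 high-numbered cells were found. By title those 7 were GSC1_MS094_131, GSC1_MS094_141, GSC1_MS094_142, GSC1_MS094_144, GSC1_MS094_145, GSC1_MS094_147 and GSC1_MS094_149. In the other lines 3 of 24 GSC2 cells, 1 of 30 GSCLC1 cells and 1 of 24 GSCLC4 cells did so.

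The highest of these cells, GSC1_MS094_147 and GSC1_MS094_141, had 2604 and 1714 RPM of Vim, 1503 and 760 RPM of Tmsb4x and 262 and 150.9 RPM of smooth muscle actin (Acta2), beside 1832 and 6377 RPM of Dazl. Of 3 matrix genes of the fibroblast list chosen after their values were seen, the collagen gene Col3a1 was at 0 in both. The collagen-linking enzyme Lox was at 0.79 and 1.85 RPM in them, but at 83.6 RPM in GSC1_MS094_131 and 47.2 RPM in GSC1_MS094_145. Fibulin 2 (Fbln2) was at 0 in GSC1_MS094_147, 66.8 RPM in GSC1_MS094_141 and 20.9 RPM in GSC1_MS094_142. No low-numbered cell had over 0.42 RPM of Lox or 0.49 RPM of Fbln2. The whole list of 21 fibroblast and feeder cell genes had 10 counted members and Lum at 0 in every cell. Of the 10, 1 was higher and 1 lower (10.0% each, beside 4.25% and 4.36% of all genes counted). The higher one was Twist1 (log2 1.03, and 0.35 without the cell numbered 65, called in 13 of 29 sets that left out 1 cell). The lower one was Sparc (log2 -1.23, and -0.81 without the cell GSC1_MS094_132, called in 14). Fold changes of means were positive in 4 members and negative in 6. The list summed to 101.5 to 965 RPM in low-numbered cells and 107.3 to 2881 RPM in high-numbered cells. Without both cells the mean of Vim in high-numbered cells was 126 RPM (log2 -1.36), and Tmsb4x, called lower over all 29 cells (log2 -2.41), was not called (log2 -1.61). Over all genes 422 were then higher and 483 lower. The part of these transcripts in the other differences was not tested beyond those values.

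**Figure D5:**
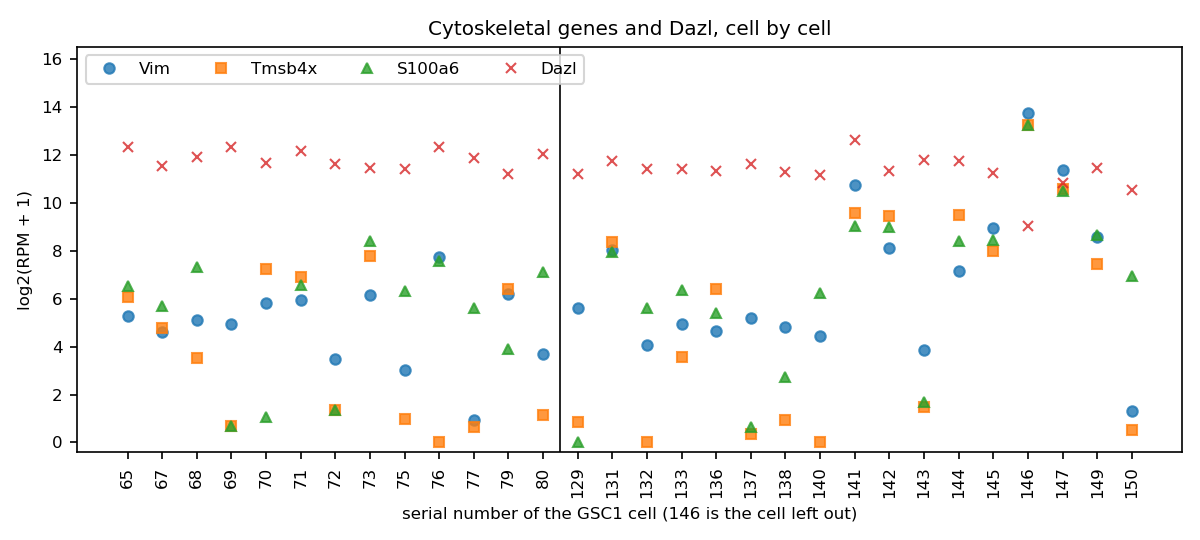
log2(RPM + 1) of Vim, Tmsb4x, S100a6 and Dazl in each GSC1 cell, ordered by serial number, with a line between the low-numbered and high-numbered cells; the cell GSC1_MS094_146, left out of all comparisons, is shown. The 7 cells named above have at least 100 RPM of the first 3 genes, and the cell left out has 13880 RPM of Vim with 517 RPM of Dazl.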

How the data were processed

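The authors' deposited table holds a signal in RPM (reads scaled to library size) for 26218 genes and 92 spike-in RNAs, 1 column a cell. The submitters' processing notes name the build mm10 and the tools cutadapt (version 1.3), TopHat (1.4.1) and Cufflinks (2.2.0), while how multiply mapped reads were counted was not given in those notes. The deposited gene signal of a GSC1 cell sums to between 1000750 and 1001430, with spike-ins on top, and empty spike-in entries were read as 0. Of a cell's values, 87.6% to 91.6% were whole reads within 0.05 read of the most frequent value above 0, too few to use counts, and depth was estimated from that value.

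Cells of the low-numbered and high-numbered sets were averaged in Python 3.11.15 with pandas 2.3.3 and NumPy 2.4.6. Fold changes used a pseudocount of 1 RPM, a filter at 5 RPM and a limit of 2-fold in mean and median. The calling was run on simulated cells with planted changes far above 2-fold, so that check does not cover calls near the limit. It is no measure of false calls among these cells. Share intervals are exact (Clopper-Pearson, SciPy 1.17.1) and cover counting error only. No doublet caller was run, and how cells were picked is not stated.

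Genes named were the 15 largest called differences per direction with at least 20 RPM in the higher set and 5 RPM in at least 50% of its cells, up to 4 members of each of 39 lists by size, and a fixed set of germ cell, p53, cytoskeletal and early response genes; a selection of these is described. The widely detected genes, Birc5, Phlda3, Pmaip1, Uchl1, Ccnb1, Top2a and Dusp6 were chosen after their values were seen. So were Col1a1, Col3a1, Fn1, Lox, Fbln2, Plk2, Rrm2b, Sesn1, Cdk1, Bub1b, Tdrd6 and Coro1c, and the limit for Vim, Tmsb4x and S100a6. The sets and lists were chosen with earlier results of these data known. Gene positions come from the RefSeq annotation of GRCm38.p6, which mm10 names too; 24619 genes (93.9%) matched by Entrez number. Alternatives covered pseudocount, filter, limit, scaling, thinning and left-out cells.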

Additional observations from a re-analysis of the deposited data

Results flagged for a closer look

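The cell GSC1_MS094_146, which the comparisons leave out, stood apart in 3 gene lists. Its fibroblast and feeder cell genes summed to 75727 RPM, against a highest value of 2881 RPM and a median of 367 RPM over the other 29 GSC1 cells. Its S100, annexin and actin cytoskeleton genes summed to 76846 RPM, against at most 14384 RPM in the 29 cells. Its Leydig and peritubular genes summed to 8843 RPM, against at most 273 RPM, with 8165 RPM of Acta2. It held 10358 RPM of Lox, 5665 RPM of Fbln2 and 1387 RPM of Col3a1, and 517 RPM of Dazl and 300.4 RPM of Ddx4. It had 5748 detected genes and 91374 RPM of spike-in RNA, outside the range of the 29 cells in both.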

How the results depend on the processing

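No paired analysis was possible because the cells carry unique serial numbers and no result comes from a test. As a share of the 10071 genes counted, the higher and lower genes (4.25% and 4.36%) came to 6.5% and 6.74% at a pseudocount of 0.1 RPM, 1.54% and 1.78% at 10 RPM, 10.7% and 12.1% by the mean alone, 0.377% and 0.596% at 4-fold, 7.83% and 7.01% by the mean of log2(RPM + 1) over cells, and 0.0596% and 0.0199% within the widely detected genes (added later). They stayed within 1.5 times of the main counts with a filter at 20 RPM or none, median-ratio or spike-in scaling, thinning, and the cell GSC1_MS094_146 included, and also without GSC1_MS094_141 and GSC1_MS094_147 (added later), between 3.09% and 4.8%. Leaving out 1 cell at a time gave 4.19% to 4.95% higher and 4.15% to 4.95% lower genes, and 84.1% to 91% of the calls remained. No called gene took the opposite call under these settings. Of the called named genes, Ier3 reversed: its log2 fold change of -1.17 ranged from -2.78 to 0.15 when single cells were left out, the highest without GSC1_MS094_147, and was 0.32 without GSC1_MS094_141 and GSC1_MS094_147. Without both, the lower members of the G2 and M phase list numbered 4, and those of the immediate early list and the S100, annexin and actin list 0. Scaling moved the median of all genes by under 0.1 (log2). With 13 and 16 cells of 1 culture, genes detected in few cells are poorly estimated.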
